A study of Mus musculus with 6 samples.

Results

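The Hox genes made up 39 of the 46603 genes counted in 6 poly(A) RNA libraries of enteric glial cell (EGC) cultures, the glia of the gut wall. Members were taken by symbol alone, as Hox followed by a cluster letter from a to d and a number, so no measured value entered the choice. The cultures came from C57BL/6J mouse embryos at embryonic day 14.5. Cells of the entire intestine were dissociated, grown as free-floating neurospheres with EGF and FGF, and then plated and grown in serum. One group of 3 cultures was left as control, and the other group of 3 cultures received lipopolysaccharide (LPS), a component of the bacterial cell wall, at 100 ng/ml for 12 h. The labels name no transgene or deletion in either group. They do not say whether replicates are separate animals or separate dishes, so the p-values below measure the spread between these libraries, which may be technical. Because each culture was made from the entire intestine, cells of anterior and posterior gut cannot be told apart in it.

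Hox genes encode homeodomain transcription factors that give cells a position along the head-to-tail axis. They lie in 4 clusters, HoxA to HoxD, and genes at the same place in different clusters form a paralog group with a common ancestor. Genes of low group number lie at the 3′ end of a cluster and are used from the hindbrain backwards, and genes of high group number lie at the 5′ end and are used towards the tail. In the gut, Hox genes are transcribed in nested domains of the mesenchyme and in the neural crest cells that form neurons and glia, with the highest group numbers in the hindgut.

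Total counts ranged from 18775316 to 23664312 per library. Levels are given in CPM, the counts of a gene per 1000000 counts of the scaled library. The detection floor was set at 3 counts in a library, equal to 0.124 to 0.167 CPM. The glial and crest markers were present, with Sox10 between 73.8 and 101 CPM in the 6 libraries. The cultures were not pure: the mesenchymal gene Col1a1 stood between 5445 and 6269 CPM, and the macrophage gene Lyz2 between 2385 and 11480 CPM. The epithelial marker Vil1 was at or under the floor in all 6 libraries, while the 5 epithelial markers listed summed to 3.01 to 9.84 CPM. Which of these cells transcribed a Hox gene was not measured.

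Per kb of exon, Hox genes of paralog groups 2 to 8 were the most abundant at rest. To compare genes, CPM was divided by the length of each gene's merged exons in kilobases (kb). On this scale the highest level was that of Hoxa5, a member of the paralog group that includes the enteric crest gene Hoxb5, at 10.4 ± 3.44 CPM per kb (SD, n = 3) and 6.52 CPM per kb in control replicate 3. Hoxc6 followed at 9.57 ± 2.07 CPM per kb, Hoxb6 at 8.84 ± 1.93, Hoxb4 at 8.28 ± 1.90 and Hoxb3 at 7.37 ± 1.20 CPM per kb. These neighbours in the order overlapped in their 3 libraries, and the highest member was Hoxa5 in control replicates 1 and 2 but Hoxc6 in control replicate 3. Hoxb7 stood at 7.15 ± 1.54, Hoxb2 at 6.68 ± 1.30, Hoxb5 at 6.49 ± 2.22, Hoxc8 at 4.84 ± 0.351 and Hoxb8 at 4.73 ± 0.583 CPM per kb. These 10 genes held 65.0% of the summed Hox level, and 9 or 10 of them were also the 10 highest in each control library taken alone. The order among the 10 depended on the length used, while the 10 genes were the same, a check added after the values were seen. Per kb of the longest coding transcript, Hoxc6 at 14.6 ± 3.15 and Hoxb2 at 14.3 ± 2.79 CPM per kb stood above Hoxa5 at 10.4, and in CPM not divided by length Hoxb3 was highest at 31.3 ± 5.09 CPM, with Hoxa5 the fifth at 19.6 ± 6.46 CPM (SD, n = 3). Of the 33 neighbouring pairs in the order of members above the floor, 1 pair, Hoxa3 over Hoxa9, had control values that did not overlap.

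**Figure D1:**
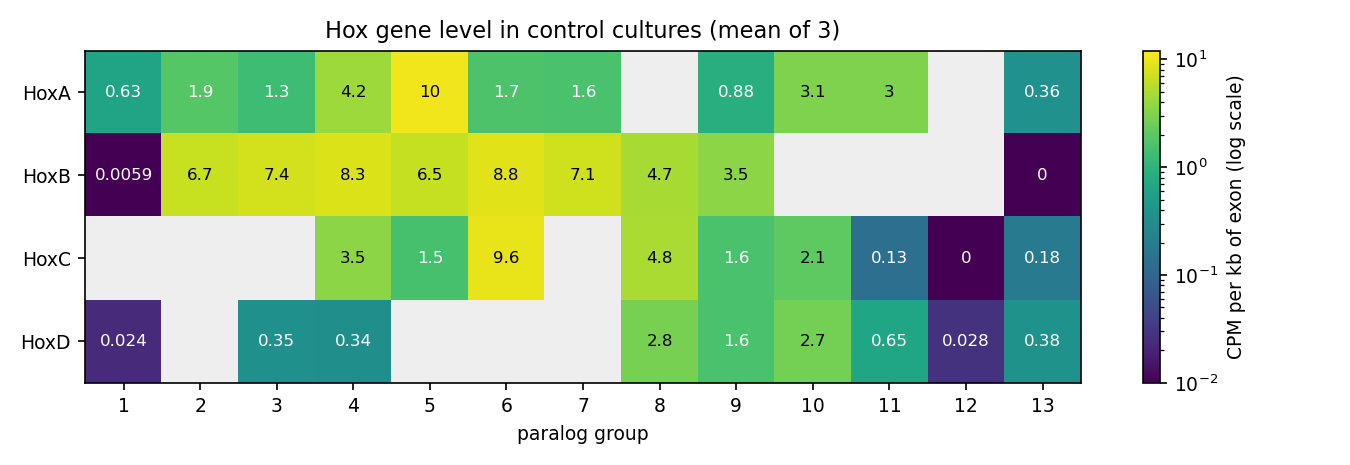
Mean level of each Hox gene in the 3 control cultures, in CPM per kb of exon on a logarithmic colour scale that starts at 0.01, by cluster (rows) and paralog group (columns). Grey squares have no gene, and the brightest squares are Hoxa5 at 10.4, Hoxc6 at 9.57 and Hoxb6 at 8.84 CPM per kb.

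By paralog group, summed over the clusters, the control level was highest in groups 4 to 6, whose values overlapped, and lowest in groups 1, 12 and 13. Group 1 reached 0.664 ± 0.178 CPM per kb (SD, n = 3), group 4 reached 16.3 ± 3.32, group 5 reached 18.5 ± 5.64 and group 6 reached 20.1 ± 4.38 CPM per kb. Beyond it, group 8 reached 12.4 ± 1.59, group 10 reached 7.85 ± 2.29, group 11 reached 3.80 ± 0.425, group 12 reached 0.0285 ± 0.0207 and group 13 reached 0.915 ± 0.248 CPM per kb. Groups 4 to 8 held 66.5 ± 0.195% of the summed level, groups 1 to 3 held 16.0 ± 0.615% and groups 9 to 13 held 17.5 ± 0.797%. The same share of groups 4 to 8 was 58.6% when counts were not divided by length, so it remained the largest of the 3 ranges. Groups 4 to 6 were also the highest per kb of the longest coding transcript, but not in CPM undivided by length, where group 3 at 40.7 CPM stood above group 4 at 38.0 CPM.

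The HoxB cluster was the main contributor among clusters. It held 46.5 ± 0.858% of the summed control level (SD, n = 3), against 25.2 ± 1.22% for HoxA, 20.7 ± 1.35% for HoxC and 7.66 ± 0.765% for HoxD. In HoxB all 8 genes from Hoxb2 to Hoxb9 were tested, and their control means lay between 8.84 CPM per kb for Hoxb6 and 3.55 ± 1.10 CPM per kb for Hoxb9, a gene that patterns the thoracic skeleton. In HoxD the highest member was Hoxd8 at 2.81 ± 0.673 CPM per kb, followed by Hoxd10 at 2.72 ± 1.04 CPM per kb.

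The lowest members lay at or near the ends of the clusters. Hoxc12 had 0 counts in all 6 libraries, which allows up to 3 counts in each. Hoxb1, a gene of the hindbrain, had 1 count in control replicate 3 and 0 in the other 5 libraries, and Hoxb13, a gene of the tail end of the body, had 2 counts in LPS replicate 2 and 0 in the other 5. Hoxd1 had 3 counts in control replicate 2 and 0 elsewhere, and Hoxd12 had between 0 and 3 counts. These 5 genes were at or under the floor in every library. Hoxc11, with 1 to 10 counts, and Hoxc13, with 6 to 16 counts, were above the floor in every control library but too low to be tested. Among members of group 13, Hoxa13 and Hoxd13, which pattern the hindgut and genital tract, were above the floor in all 6 libraries at 0.357 ± 0.166 and 0.376 ± 0.0967 CPM per kb in control (SD, n = 3). In all, 34 of 39 members were above the floor in every control library and 32 passed the filter on low counts and were tested.

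Some of these levels are uncertain because exons overlap and the strand setting of the counting is not given in the sources used here. Hoxd3 and Hoxd4 shared 62.3% and 52.3% of their exon bases with genes on the same strand, mainly with each other. Hoxb3 shared 52.9% of its exon bases, and Hoxb2 27.3%, with the antisense gene Hoxb3os on the opposite strand. Hoxa11 shared 35% with Hoxa11os. Hoxa5, Hoxb4, Hoxb6, Hoxb7, Hoxb8, Hoxc6 and Hoxc8 shared no exon base with another annotated gene. Among the 10 highest members, Hoxb5 shared 3.59% with Hoxb5os.

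Most Hox genes were lowest in replicate 3 of both groups, a pattern noticed after the values were seen. Hoxa5 stood at 24.4, 22.1 and 12.2 CPM in control replicates 1, 2 and 3 and at 21.3, 23.0 and 12.8 CPM in LPS replicates 1, 2 and 3. Hoxb5, a factor of the enteric neural crest, stood at 22.6, 20.6 and 11.0 CPM in control and at 21.3, 20.5 and 11.1 CPM in LPS. For both genes the value of replicate 3 was far below the other 2 libraries of its group, and the groups overlapped. Of the 32 tested members, 28 were lowest in replicate 3 of control, 29 in replicate 3 of LPS and 27 in both, against 29.0% of all tested genes in both. The median member stood in replicate 3 at 0.652 of the mean of replicates 1 and 2 in control and at 0.683 in LPS, while the median over all tested genes was 0.997 and 1.00.

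**Figure D2:**
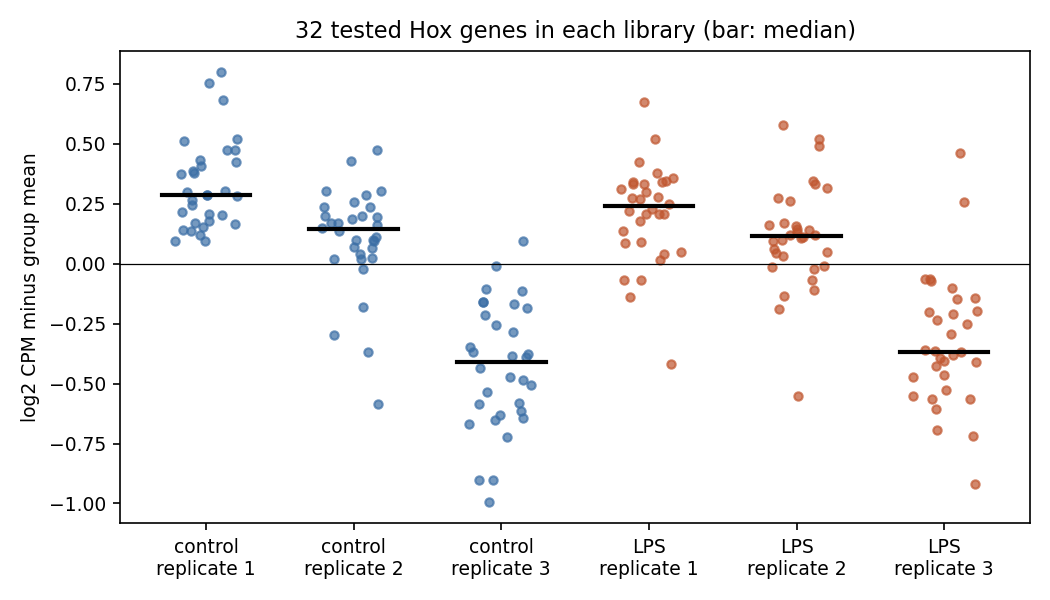
Deviation of each of the 32 tested Hox genes from its group mean, in log2 CPM, by library, with points for genes and a black bar for the median. The medians were -0.41 in control replicate 3 and -0.37 in LPS replicate 3, and above 0 in the other 4 libraries.

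The marker lists moved with replicate number as well. The 8 macrophage markers summed to 3662, 4644 and 10692 CPM in control replicates 1, 2 and 3, and to 3706, 4799 and 17413 CPM in LPS. The 6 neuronal markers summed to 382, 374 and 215 CPM in control and to 365, 376 and 239 CPM in LPS, and the 9 glial and crest markers to 928, 840 and 695 CPM in control and to 761, 757 and 727 CPM in LPS. The 6 mesenchymal markers summed to between 10485 and 12112 CPM in all libraries. The 3 markers of interstitial cells of Cajal, the pacemaker cells of the gut, summed to 203, 204 and 68.2 CPM in control and to 87.0, 78.4 and 50.5 CPM in LPS, and the 5 mesothelial markers to 87.9, 82.4 and 122 CPM in control and to 37.3, 38.2 and 63.1 CPM in LPS. Of the sums given, those of neurons, glia and crest, and interstitial cells of Cajal were lowest in replicate 3 of both groups, as was that of smooth muscle, and those of macrophages and mesothelium were highest there, as were those of endothelium and epithelium. In bulk RNA, fewer cells of a type and less RNA per cell cannot be told apart, and the part of these cell types in the low Hox values of replicate 3 was not tested.

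Under LPS, 1 Hox gene, Hoxc8, was called by the edgeR test without a replicate block, and it fell. Hoxc8, a gene of the trunk that is known in motor neurons and cartilage, lies on the plus strand at chr15:102990607-102994111 (GRCm38) in 2 merged exons. It stood at 14.6, 13.9 and 12.6 CPM in control replicates 1, 2 and 3, and at 7.91, 8.08 and 7.48 CPM in LPS replicates 1, 2 and 3. All 3 LPS values lay below all 3 control values, and the spread within each group was small. The counts behind these values were 345, 313 and 306 in control and 160, 145 and 143 in LPS. The level fell by 0.81 on the log2 scale (SE 0.11), or 1.75-fold, with an adjusted p of 0.00973 in the edgeR quasi-likelihood test.

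Against this 1 call among 32 tested members, 15.8% of all 15226 tested genes were called, 9.09% higher and 6.71% lower. With all 6 libraries and without the block, 0 Hox genes were called higher by edgeR, DESeq2 or limma-voom, and 1 of the 32 members had an unadjusted p under 0.05 in edgeR, namely Hoxc8, against 32.1% of all tested genes. Likewise, 1 member, Hoxc8, had LPS values all below control and 0 members had them all above, against 19.4% and 19.3% of all tested genes (38.7% in all). The call of Hoxc8 held with each other scaling, filter and tool tried, with adjusted p from 4.24e-07 in DESeq2, which called 24.7% of all genes, to 0.0136. Of all tested genes, 15.9% were called with relative log expression factors, 17.3% with upper-quartile factors, 20.0% with library size alone, 7.76% with no filter beyond a total count above 0, 15.7% with at least 10 counts in every library and 14.3% by limma-voom. It was lost without control replicate 1 (adjusted p = 0.0557 in edgeR, log2 fold change -0.75) and without control replicate 2 (adjusted p = 0.0655 in edgeR, log2 fold change -0.79), where only 4.28% and 3.15% of all tested genes were called.

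Both relatives of Hoxc8 in paralog group 8 were measured, and neither was called. Hoxb8 stood at 13.5, 13.2 and 10.7 CPM in control and at 13.9, 11.9 and 7.96 CPM in LPS, and Hoxd8 at 8.94, 8.59 and 5.58 CPM in control and at 7.26, 5.74 and 5.23 CPM in LPS. The groups overlapped for both genes. In the fit without the replicate block, the log2 fold change of Hoxb8 was -0.15 with a 95% interval from -0.71 to 0.42. That of Hoxd8 was -0.34 with an interval from -0.93 to 0.25. A fall like that of Hoxc8 was outside the interval for Hoxb8 and inside it for Hoxd8. As a description with no test, Hoxc8 over Hoxb8 was 1.08, 1.05 and 1.18 in control and 0.567, 0.678 and 0.941 in LPS for replicates 1, 2 and 3, with no overlap. Hoxc8 over Hoxd8 did not overlap either, from 1.61 to 2.27 in control and from 1.09 to 1.43 in LPS, while Hoxc8 over Hoxc6 did, from 0.536 to 0.720 in control and from 0.350 to 0.548 in LPS.

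Reads of these 3 paralogs can be told apart, as their homeoboxes show. The homeobox is the 180-base stretch that encodes the DNA-binding domain, and it was identical between Hoxb8 and Hoxc8 at 80% of bases, between Hoxc8 and Hoxd8 at 73.3% and between Hoxb8 and Hoxd8 at 80.6%. Its bases 91 to 180, the part that ends with the recognition helix, are given here 5′ to 3′ from the GENCODE M21 transcripts, with the 23 positions at which the 3 genes are not all the same in capitals.
Hoxb8: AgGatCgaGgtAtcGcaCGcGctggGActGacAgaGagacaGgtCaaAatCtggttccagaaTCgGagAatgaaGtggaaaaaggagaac
Hoxc8: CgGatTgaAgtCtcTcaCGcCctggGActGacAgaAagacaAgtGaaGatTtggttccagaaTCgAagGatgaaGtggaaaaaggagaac
Hoxd8: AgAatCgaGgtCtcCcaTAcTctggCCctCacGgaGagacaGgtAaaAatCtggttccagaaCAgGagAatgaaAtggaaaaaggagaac
Over the annotated transcripts, 0.432% of the 50-base words of Hoxc8 also occurred in another gene, and none of those of Hoxb8 or Hoxd8 did.

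**Figure D3:**
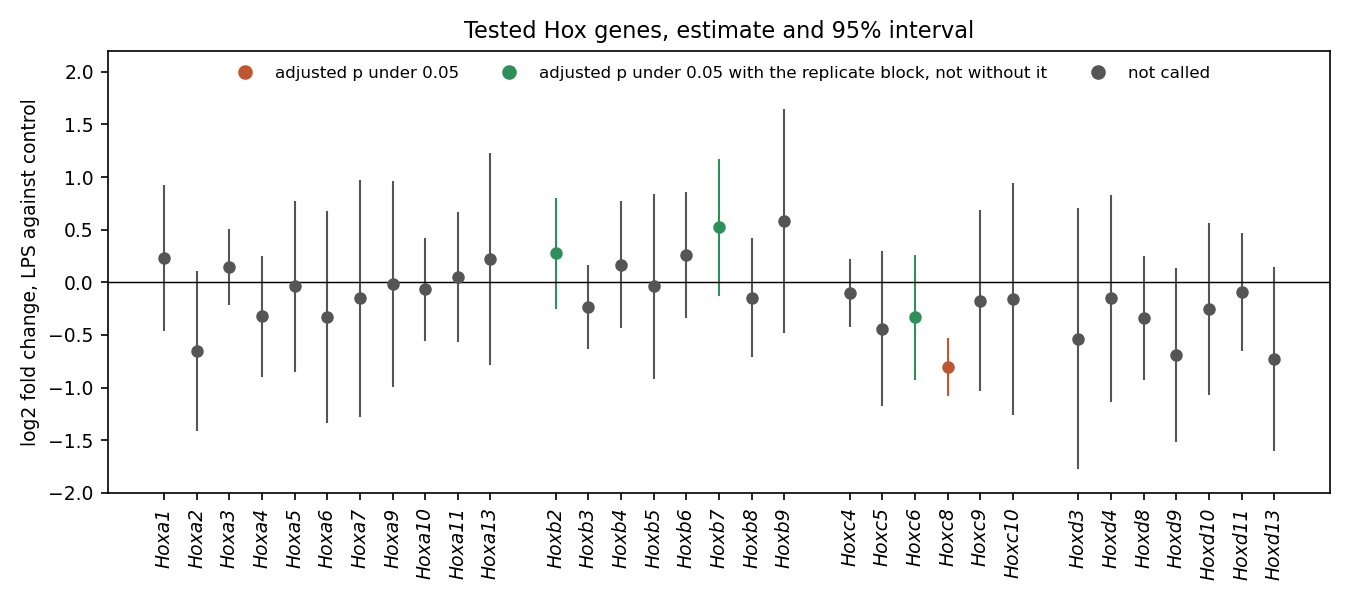
Log2 fold change of LPS against control for the 32 tested Hox genes in cluster order. Bars give the 95% interval of the edgeR fit without the replicate block. Hoxc8 at -0.81 is the single member called, and Hoxb2, Hoxb7 and Hoxc6 were called with the replicate block and not without it in the fits to all 6 libraries.

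The other 31 tested members were not called, and their estimates ran from -0.73 for Hoxd13 to 0.58 for Hoxb9 on the log2 scale. The median over the 32 members was -0.15, against -0.02 over all tested genes, and it ran from -0.27 without control replicate 3 to 0.05 without LPS replicate 3. The median size of the change regardless of sign was 0.23 over the members and 0.28 over all tested genes. In the fit without the replicate block, the 95% interval lay within -1 and 1 for 17 of the 32 members. For these a 2-fold change in either direction was outside the interval, and for the other 15 it was not. The widest interval was that of Hoxd3, from -1.78 to 0.71, at 1.48 ± 0.814 CPM in control (SD, n = 3).

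Estimates below 0 were found for all 6 tested HoxC and all 7 tested HoxD members, and for 7 of 11 HoxA and 3 of 8 HoxB members. The medians were 0.21 for HoxB, -0.04 for HoxA, -0.25 for HoxC and -0.34 for HoxD on the log2 scale, with no test of the clusters. With 1 library left out, the median ran from 0.06 to 0.39 for HoxB and from -0.26 to 0.18 for HoxA. It ran from -0.45 to -0.11 for HoxC and from -0.51 to -0.07 for HoxD. Without control replicate 1, 1 of the 6 HoxC and 3 of the 7 HoxD members had estimates above 0, without control replicate 2 it was 1 HoxC member, and without LPS replicate 3 it was 2 HoxC members.

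The low values of replicate 3 were shared by both groups, and with the replicate number in the model as a block, 4 Hox genes were called, against 30.3% of all tested genes. Hoxb7, a gene of the trunk, stood at 12.6, 12.2 and 8.31 CPM in control replicates 1, 2 and 3 and at 19.5, 16.9 and 11.1 CPM in LPS. Within each replicate number the LPS library was the higher one, although LPS replicate 3 was below control replicates 1 and 2. The log2 fold change was 0.51 with the block, with an edgeR adjusted p of 0.0242, and 0.52 without it, with an adjusted p of 0.236.

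Hoxb2, which patterns the hindbrain and its crest, stood at 26.0, 25.9 and 18.1 CPM in control and at 32.4, 30.8 and 21.6 CPM in LPS, higher in LPS at each replicate number. Its log2 fold change was 0.27 with the block, with an edgeR adjusted p of 0.0420, and 0.28 without it, with an adjusted p of 0.427. Hoxc6, a gene of the anterior trunk, stood at 27.3, 24.3 and 17.6 CPM in control and at 22.6, 18.7 and 13.7 CPM in LPS, lower in LPS at each replicate number. Its log2 fold change was -0.34 with the block, with an edgeR adjusted p of 0.0337, and -0.33 without it, with an adjusted p of 0.399. The groups of these 2 genes overlapped. Hoxc8 had a log2 fold change of -0.81 and an adjusted p of 0.00909 with the block.

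With both replicates 3 left out, a choice made after the values were seen, 43.0% of all tested genes and 6 Hox genes were called. Hoxb2 (log2 fold change 0.31), Hoxb7 (0.58) and Hoxb9 (0.70) were higher in LPS, and Hoxb3 (-0.24), Hoxc8 (-0.81) and Hoxd9 (-0.81) were lower. Hoxb9 stood at 10.8, 10.7 and 5.87 CPM in control replicates 1, 2 and 3 and at 15.8, 18.6 and 6.60 CPM in LPS. Hoxc6 was not called in this fit, with an edgeR adjusted p of 0.0835.

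**Figure D4:**
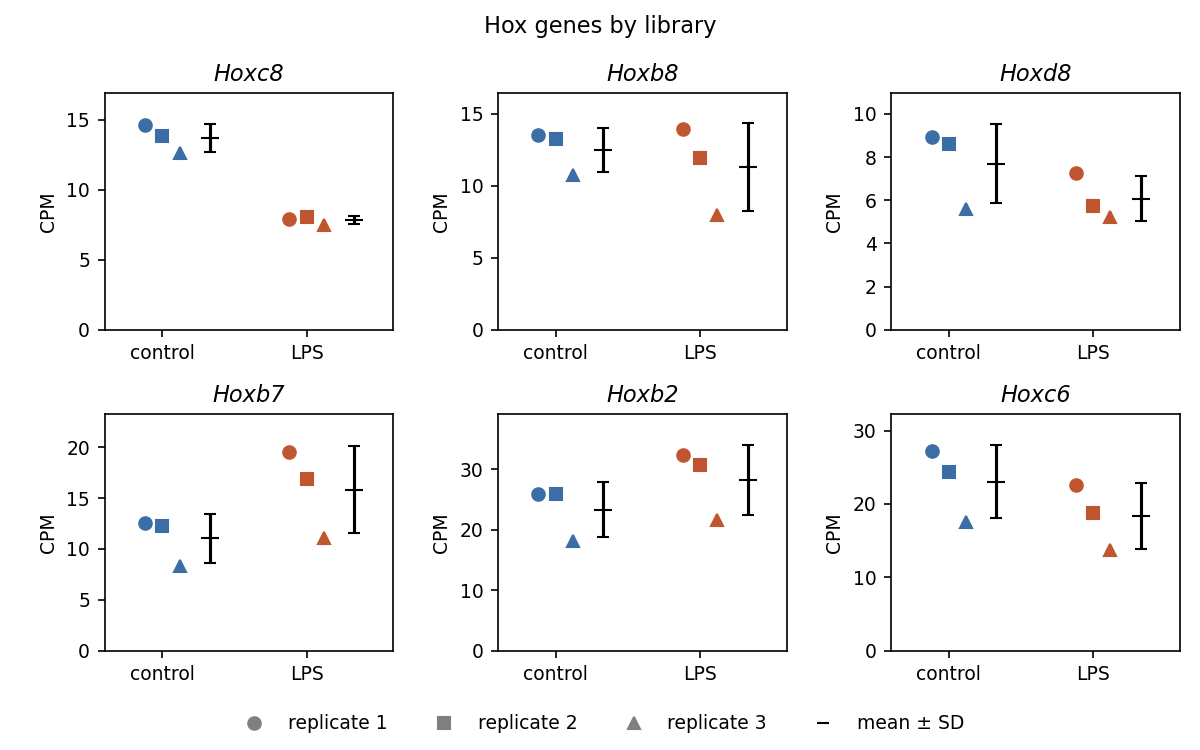
CPM of 6 Hox genes in each library, with symbols for the replicate number, blue for control, orange for LPS, and the mean ± SD in black. The groups are apart for Hoxc8, from 12.6 to 14.6 CPM in control against 7.48 to 8.08 CPM in LPS, and overlap for Hoxb8, Hoxd8, Hoxb7, Hoxb2 and Hoxc6.

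Shares taken within a library do not carry the common level of that library. In replicates 1, 2 and 3, HoxB held 45.5, 47.1 and 46.9% of the summed Hox CPM per kb of control and 54.2, 54.9 and 51.0% of that of LPS. HoxC held 20.0, 19.8 and 22.2% in control and 16.2, 14.9 and 18.3% in LPS. HoxD held 7.10 to 8.53% in control and 5.78 to 7.08% in LPS. In these libraries the shares of the 3 clusters did not overlap between groups, HoxB being higher and HoxC and HoxD lower in LPS, and the shares of HoxA, from 23.8 to 26.0% in control and from 23.7 to 24.4% in LPS, overlapped. In CPM not divided by length, HoxB and HoxC were apart in the same directions, while HoxD overlapped, from 7.02 to 8.37% in control and from 5.70 to 7.17% in LPS. These shares were compared after the values were seen and no test was made of them. The cluster shares of a library sum to 100%, so they are not separate observations. The summed CPM of HoxB overlapped between groups, from 109 to 165 in control and from 114 to 184 in LPS. The share of groups 4 to 8 was 66.5 ± 0.195% in control and 66.0 ± 0.769% in LPS (SD, n = 3), and the summed CPM of all members was 293 ± 63.6 in control and 286 ± 60.3 in LPS.

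**Figure D5:**
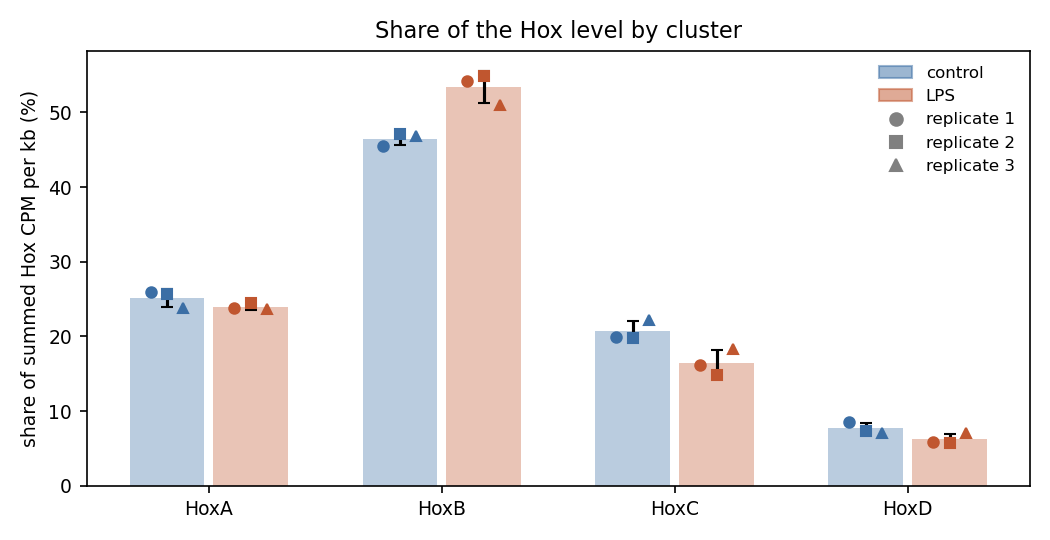
Share of each cluster in the summed Hox level (CPM per kb of exon) by group, with bars for the mean, error bars for the SD over 3 libraries and symbols for the replicates. HoxB lay between 45.5 and 47.1% in control and between 51.0 and 54.9% in LPS.

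Markers of other cell types are given beside these results, and some of them differed between control and LPS. All 6 smooth muscle markers were called lower, against 6.71% of all tested genes called lower and 9.09% called higher, and their sum was 2266 to 2492 CPM in control and 634 to 900 CPM in LPS. The sum of 5 mesothelial markers was 82.4 to 122 CPM in control and 37.3 to 63.1 CPM in LPS, with 2 of 5 called lower, and 1 of 3 markers of interstitial cells of Cajal was called lower. Of 6 mesenchymal markers 3 were called higher, of 9 glial and crest markers 1 was called higher and 1 lower, of 8 macrophage markers 1 was called higher, and of 6 neuronal markers 0, the counts for glia and crest and for macrophages being near the shares over all genes. The sum of the 4 endothelial markers was 10.9 to 17.7 CPM in control and 8.05 to 20.7 CPM in LPS, and that of the 5 epithelial markers 3.45 to 9.84 and 3.01 to 4.97 CPM, with none called among the 3 endothelial and 2 epithelial markers that were tested. With the replicate block, where 30.3% of all tested genes were called, the calls were 6 lower for smooth muscle, 5 lower for mesothelium, 2 lower for interstitial cells of Cajal, 3 higher and 1 lower for mesenchyme, 2 higher and 1 lower for glia and crest, 3 higher and 3 lower for macrophages, 2 higher for endothelium, 1 lower for epithelium and 0 for neurons. The part of these cell types in the lower Hoxc8 level was not tested.

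Hox proteins bind DNA together with cofactors of the TALE class, the Pbx, Meis and Prep (Pknox) homeodomain proteins, and 2 of the 9 cofactor genes were called lower in LPS, against 6.71% of all tested genes, and 0 higher. Pbx3 fell from 33.8 ± 4.12 to 20.7 ± 1.30 CPM (SD, n = 3), a log2 fold change of -0.71 (SE 0.12) with an edgeR adjusted p of 0.0169. Pknox2 fell from 23.6 ± 0.971 to 13.1 ± 3.33 CPM, a log2 fold change of -0.85 (SE 0.19) with an edgeR adjusted p of 0.0347. For both genes all LPS libraries lay below all control libraries. With the replicate block, Meis1 and Meis2 were called lower as well, with edgeR adjusted p of 0.0252 and 0.0110, which made 4 of 9, against 30.3% of all tested genes. The median over the 9 genes was -0.37 on the log2 scale, against -0.02 over all tested genes.

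Retinoic acid and Cdx factors are the classical inputs that switch on Hox clusters in the embryo. Of 21 genes of this list 15 were tested, with 3 called higher and 0 lower, against 9.09% and 6.71% of all tested genes. Cyp26b1, an enzyme that degrades retinoic acid, rose from 3.47 ± 0.408 to 8.59 ± 2.67 CPM (SD, n = 3), a log2 fold change of 1.30 with an edgeR adjusted p of 0.0264. Rdh10, an enzyme of retinoic acid synthesis, rose by 0.41 on the log2 scale (adjusted p = 0.0270 in edgeR). The most abundant tested gene of the list was the retinoid X receptor gene Rxra, at 108 ± 14.5 CPM in control cultures and 85.5 ± 20.6 CPM under LPS, called lower with the replicate block (edgeR adjusted p = 0.0287) and not without it when all 6 libraries were used. It was also called without LPS replicate 3 and with both replicates 3 left out. With the block 3 genes of the list were called higher and 3 lower, against 30.3% of all tested genes called in either direction. Cdx2 and Cdx4 had 0 counts in all libraries, and Cdx1 was under the floor in all of them.

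Polycomb proteins keep Hox genes silent and trithorax proteins keep them active. All 26 listed genes were tested, with 3 called higher and 1 lower, a share near the 15.8% of all tested genes called in either direction. The Polycomb gene Cbx2, whose protein binds methylated histone H3, fell from 9.42 ± 0.236 to 5.50 ± 0.592 CPM (SD, n = 3), a log2 fold change of -0.78 with an edgeR adjusted p of 0.0181. Eed, a core Polycomb subunit, rose by 0.47 (adjusted p = 0.0232 in edgeR), Mtf2, which recruits Polycomb to DNA, by 0.63 (adjusted p = 0.0479) and Men1, a partner of trithorax methyltransferases, by 0.29 (adjusted p = 0.0337) on the log2 scale. With the replicate block 2 genes of the list were called higher and 3 lower, a smaller share than the 30.3% of all tested genes, and Mtf2 was not called (edgeR adjusted p = 0.0508). Phc2, the most abundant at rest, stood at 115 ± 1.03 CPM in control cultures and 133 ± 10.7 CPM under LPS, with all LPS libraries above control, and was not called with all 6 libraries (edgeR adjusted p = 0.130). It was called without LPS replicate 3 and with both replicates 3 left out.

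Among 17 neighbouring and ParaHox genes, 9 were tested and 1 was called, a share near the 15.8% of all tested genes, namely Snx10, a sorting nexin gene listed as a neighbour of the HoxA cluster, which rose by 1.43 on the log2 scale (edgeR adjusted p = 0.0286). Skap2, the most abundant neighbour, had an estimate of -0.05 (adjusted p = 0.935 in edgeR). Of 16 non-coding RNA genes of the clusters found in the files, 7 were tested and 0 called, against the same 15.8%; the highest at rest was Hoxb3os at 2.81 ± 0.323 CPM (SD, n = 3). Hoxaas2 and Hoxb5os were called lower with the replicate block, with edgeR adjusted p of 0.0220 and 0.0437, and with both replicates 3 left out. Of 26 other regional transcription factors of the gut wall, 22 were tested, and 2 were called higher and 2 lower, a share near the 15.8% of all tested genes. Foxf2, a factor of gut mesenchyme, and Tbx3 were called higher, with log2 fold changes of 0.85 and 0.36 (edgeR adjusted p = 0.0217 and 0.0496). With the replicate block 4 regional factors were called higher and 5 lower, against 30.3% of all tested genes. Of the 2 called lower without it, Gata4 had a log2 fold change of -0.78 (edgeR adjusted p = 0.0430).

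The 14 calls in these lists depended on which libraries were used and, for some of them, on the processing. None was kept without control replicate 1, where their edgeR adjusted p ran from 0.0578 to 0.153, or without control replicate 2, where it ran from 0.0877 to 0.174. Snx10 alone was kept without LPS replicate 1, and Cbx2 alone without LPS replicate 2, where 5.42% and 4.41% of all tested genes were called. Of the 14, 9 were kept without control replicate 3, 11 without LPS replicate 3 and 14 with both replicates 3 left out, where 14.2%, 21.7% and 43.0% of all tested genes were called.

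The clusters also encode microRNAs, and the sequence of miR-196, which lies in HoxA, HoxB and HoxC, is given with its matches in Hoxc8 and Hoxb7 because these were the members with the lowest adjusted p in each direction with the replicate block. The mature sequence of miR-196a-5p (RefSeq, GRCm38.p6) carries its seed, bases 2 to 8, in capitals, and the 2 Hoxc8 matches and the Hoxb7 match, on the plus strand of the GENCODE M21 transcripts (GRCm38), carry the reverse complement of the seed, ACTACCT, in capitals.
mmu-miR-196a-5p: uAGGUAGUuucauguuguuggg
Hoxc8 chr15:102992975-102992997: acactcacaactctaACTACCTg
Hoxc8 chr15:102993732-102993754: ataaatctttaacatACTACCTa
Hoxb7 chr11:96289783-96289805: actgtaaaaaaatatACTACCTa
Counted from the first base after the stop codon, the matches began at bases 135 and 892 in Hoxc8 and at base 168 in Hoxb7. Such a match on the transcript strand after the stop codon was found in 8 of 39 Hox genes (20.5%), namely Hoxa4, Hoxa5, Hoxa7, Hoxa9, Hoxb1, Hoxb6, Hoxb7 and Hoxc8, and in 4.65% of 21699 genes with a coding transcript. A match is a description of the letters and not a site of action. Mature microRNAs were not measured in these poly(A) libraries. The hairpin genes Mir196a-2 and Mir196b had 0 counts in all 6 libraries, while Mir196a-1 was above the floor in all 6, between 0.209 and 0.466 CPM. Mir196b shares 1.52% of the exon bases of Hoxa9 on the same strand, so reads there overlap both genes and its 0 is uncertain. The same search with ACAGGGT, the reverse complement of the seed of miR-10a, gave 3 of 39 Hox genes (7.69%) and 9.55% of all genes with a coding transcript.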

How the data were processed

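RNA was sequenced from 3 control and 3 LPS cultures after selection of poly(A) RNA with a stranded kit. Per the submitters' processing notes, the authors used cutadapt 1.15, Bowtie2 2.3.3.1, STAR 2.5.2b, SAMtools 1.5 and featureCounts 1.5.3 with the build GRCm38, and deposited whole-number counts per gene and library; strand and multi-mapping settings are not given in the sources used here. Replicates were not pooled. A deposited table of the whole series was not used. Exon lengths, coordinates and transcript sequences came from GENCODE M21 (GRCm38), in which 46091 of 46603 identifiers (98.9%) were found.

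Genes with low counts were removed with filterByExpr of edgeR 4.0.16 (R 4.3.3; minimum count 10, minimum total 15), which kept 15226. CPM used TMM-corrected library sizes. LPS was compared with control by the quasi-likelihood F-test, two-sided, with Benjamini-Hochberg adjustment over all tested genes, and genes were called at an adjusted p-value under 0.05. SE is |log2 fold change| over the root of F. The test was checked on simulated counts. DESeq2 1.42.0 and limma 3.58.1 were alternatives, as were other scaling factors and filters, the replicate block and each library left out. No label explains the replicate numbers. Same-numbered control and LPS libraries deviated together from their groups (r over genes 0.513, 0.334 and 0.613 for numbers 1, 2 and 3), although numbers 1 and 2 were little set apart from each other (r 0.419 for control 1 with LPS 2 and 0.323 for control 2 with LPS 1) and mainly number 3 stood apart. They were treated as pairs in the block.

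The members, lists and tests were chosen with earlier results of these data known. Described in full were the 10 highest members per kb, members called with or without the block, and any with groups apart and a log2 fold change of at least 1 in size; from each list, called genes (at most 5, at least 1 CPM) and the highest at rest. A few others are named as examples, and some genes of the lists are counted but not reported here by themselves. Floors and counts cover counting error only, since PCR copies cannot be recognised.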

Additional observations from a re-analysis of the deposited data

How the results depend on the processing

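Hoxc8 remained lower in all 15 alternatives, from -0.97 to -0.75 on the log2 scale, and was called in 13 of them. Upper-quartile factors and library size alone shifted the median of all genes by -0.10 and -0.16, and changes under them are read relative to that. The number of members above the floor in every control library was 34 without any one control library. The 7 members that were not tested had too few counts to pass the filter.

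With the replicate block, where 30.3% of all tested genes were called, 2 Hox genes were called higher and 2 lower. In the lists, 4 TALE cofactors, 3 retinoid genes, 3 Polycomb and trithorax genes, 2 non-coding RNA genes and 5 regional factors were called lower. Called higher with the block were 3 retinoid genes, 2 Polycomb and trithorax genes, 2 neighbours and 4 regional factors. With both replicates 3 left out, chosen after seeing the data (43.0% of all tested genes), 3 Hox genes were higher and 3 lower; in the lists, 1 cofactor, 5 retinoid genes, 6 Polycomb and trithorax genes, 3 neighbours and 4 regional factors were higher, and 4, 4, 4 and 6 genes of the cofactor, retinoid, Polycomb and regional lists and 2 non-coding RNA genes lower. For the settings that follow, only some of the list counts are given. DESeq2, which called 24.7% of all genes, called 5 retinoid genes higher and 2 lower and 3 neighbours higher. Upper-quartile factors (17.3% of all tested genes) gave 1 Polycomb gene and 1 regional factor higher and 2 retinoid and 2 Polycomb genes lower; library size alone (20.0%) gave 1 retinoid gene, 1 Polycomb gene and 1 regional factor higher and 2 retinoid and 3 Polycomb genes lower. Without a filter (7.76%) 1 gene each of the retinoid, Polycomb and regional lists was higher and 1 regional factor lower, and limma-voom (14.3%) and the filter of 10 counts in every library (15.7%) gave 1 regional factor higher. The cause of these shifts was not tested.

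Leaving out 1 library, which left from 3.15 to 21.7% of all tested genes called, gave 0 to 1 Hox genes called lower and 0 higher. In the lists it gave 0 to 3 cofactors lower, 0 to 3 retinoid genes higher and 0 to 3 lower, 0 to 5 Polycomb and trithorax genes higher and 0 to 1 lower, 0 to 2 neighbours higher, and 0 to 1 regional factors higher and 0 to 2 lower.

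Signs of estimates near 0 changed, in no case with a call. With library size alone Hoxa3 was -0.0078 and Hoxa11 -0.10, and Hoxa11 was -0.047 with upper-quartile factors. Hoxa9 was 0.00027 with relative log expression factors, 0.00026 in DESeq2 and 0.029 with both replicates 3 left out, where Hoxa10 was 0.027. With 1 library left out, the estimates ran from -0.27 to 0.18 for Hoxa5, -0.46 to 0.12 for Hoxa7, -0.26 to 0.26 for Hoxa9, -0.19 to 0.089 for Hoxa10, -0.18 to 0.23 for Hoxa11, -0.052 to 0.63 for Hoxa13, -0.28 to 0.21 for Hoxb5, -0.33 to 0.051 for Hoxb8, -0.40 to 0.055 for Hoxc9, -0.47 to 0.071 for Hoxc10, -0.39 to 0.33 for Hoxd4, -0.50 to 0.044 for Hoxd10, -0.24 to 0.069 for Hoxd11 and -0.37 to 0.21 for Skap2.

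Shares of the control level moved with the length used. Counts not divided by length gave 23.0% for HoxA, 49.2% for HoxB, 23.6% for groups 1 to 3 and 58.6% for groups 4 to 8. The length of the longest coding transcript, added after seeing the data, gave 22.8% for HoxA, 22.4% for HoxC, 21.2% for groups 1 to 3, 62.5% for groups 4 to 8 and 16.3% for groups 9 to 13. Without Hoxa5, the highest member, HoxA held 17.8%, HoxB 51.1%, HoxC 22.7%, groups 1 to 3 17.6%, groups 4 to 8 63.2% and groups 9 to 13 19.2%. Without 1 control library, the shares ran from 24.8 to 25.9% for HoxA, 46.2 to 47.0% for HoxB, 19.9 to 21.1% for HoxC and 66.4 to 66.6% for groups 4 to 8.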
